A study of Homo sapiens with 3 samples.

Results

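The splicing factor and hnRNP genes were taken by symbol from the deposited expression table. Symbols made of SRSF and a number, of HNRNP and letters or digits, or of SF3A or SF3B and a digit were kept, and pseudogenes and antisense genes were left out. The rule found 39 genes among 29689 in the table. These were 12 SRSF, 19 HNRNP and 8 SF3 genes, and 25 pseudogenes were left out.

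SRSF genes encode SR proteins, which bind exonic enhancers through RNA recognition motifs and recruit the spliceosome through a tail of alternating arginine and serine that is phosphorylated by SRPK and CLK kinases. The hnRNPs coat nascent transcripts and often work against SR proteins at silencer elements. The SF3A and SF3B complexes are parts of the U2 snRNP that recognize the branch point of each intron. Many SR protein and hnRNP genes control their own level by including a poison exon that sends the transcript to nonsense-mediated decay.

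RNA-seq was performed on xenografts grown from the TNBC line SUM-149, which had been injected with Matrigel into mammary fat pads of female Nu/Nu mice. One tumor library each was deposited for vehicle, for the CDK2 inhibitor dinaciclib (CDK2i) and for the EZH2 inhibitor named EPZ6438 in the labels (EZH2i), and both drugs were given for 10 days. Nu/Nu mice lack T cells but keep other host cells, the model is 1 cell line, and the study's text names another EZH2 inhibitor, GSK343, for SUM-149 xenografts, so the identity of the drug is uncertain and rests on the label. With 1 library per group no change has a replicate check, and no p-value is given.

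Levels are in FPKM, fragments scaled by transcript length and library size, and changes are differences of log2 FPKM. A gene was called when it differed more than 2-fold and its higher value was above log2 FPKM 3, which is 8 FPKM. Beside the main changes stands the spread, the SD of the same change over the 200 genes nearest in mean level, which mixes drug effects with noise. Over the 38 expressed genes it ran from 0.42 to 0.95 for CDK2i and from 0.52 to 0.84 for EZH2i. The share of all genes beyond 1 spread was not counted, so a change beyond it does not by itself mark a gene as unusual. Both comparisons with vehicle use the same vehicle library, so their values are set side by side and no overlap between them is read.

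The depth recovered from the single-fragment steps of weak genes was 16.8 M fragments (M, mega) in vehicle, 19.1 M in CDK2i and 17.5 M in EZH2i. Over 11109 expressed genes (mean log2 FPKM above 1, no value at the floor of −9) the CDK2i change had a median of −0.11, the EZH2i change 0.19 and the change from CDK2i to EZH2i 0.35. Changes relative to the median gene subtract this shift. Ribosomal protein genes held 15.4%, 8.68% and 8.33% of the summed FPKM (vehicle, CDK2i, EZH2i). All 12 epithelial markers of SUM-149 were detected, with summed levels of 7951, 16782 and 7322 FPKM in vehicle, CDK2i and EZH2i. Of the markers of other cells, 0 of 7 macrophage genes exceeded log2 FPKM 1 in any tumor. The 9 fibroblast genes summed to 25.0, 39.2 and 31.1 FPKM with THY1 at the floor throughout. The 6 endothelial genes summed to between 11.9 and 12.3 FPKM, mostly ENG, with EMCN at the floor. The 4 adipocyte genes summed to 33.2, 19.3 and 3.54 FPKM, mostly FABP4, the 5 T, B and NK cell genes to 38.5, 8.79 and 53.2 FPKM, mostly GNLY, and the erythroid gene HBA1 to 0, 0.233 and 0 FPKM. Host cells were of mouse, while the processing notes name the human genome hg19, so these sums are not a measure of host cells. The part of these marker differences in the values below was not tested, and in bulk tumors fewer cells of a type cannot be told apart from less RNA per cell.

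The splicing factors were well expressed in every tumor. Of the 39 genes, 38 passed the filter for expressed genes and 37 exceeded 8 FPKM in at least 1 tumor. Together they made up 0.546%, 0.573% and 0.853% of the summed FPKM (vehicle, CDK2i, EZH2i). The summed FPKM itself was 478777, 431781 and 405028 in that order, so a change in share is not a change in level. HNRNPA1, which binds silencers in many exons, was the most abundant in each tumor, at 262, 244 and 328 FPKM in the same order. The most abundant SR protein gene was SRSF5 in vehicle at 157 FPKM, SRSF9 in CDK2i at 119 FPKM and SRSF3 in EZH2i at 186 FPKM. Among SF3 genes SF3B5 led in vehicle at 108 FPKM and in CDK2i at 106 FPKM, and SF3B1 led in EZH2i at 71.4 FPKM. These orders rest on 1 library each, so neighbors such as SRSF4 and SRSF9, both at 101 FPKM in vehicle, cannot be ranked.

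**Figure D1:**
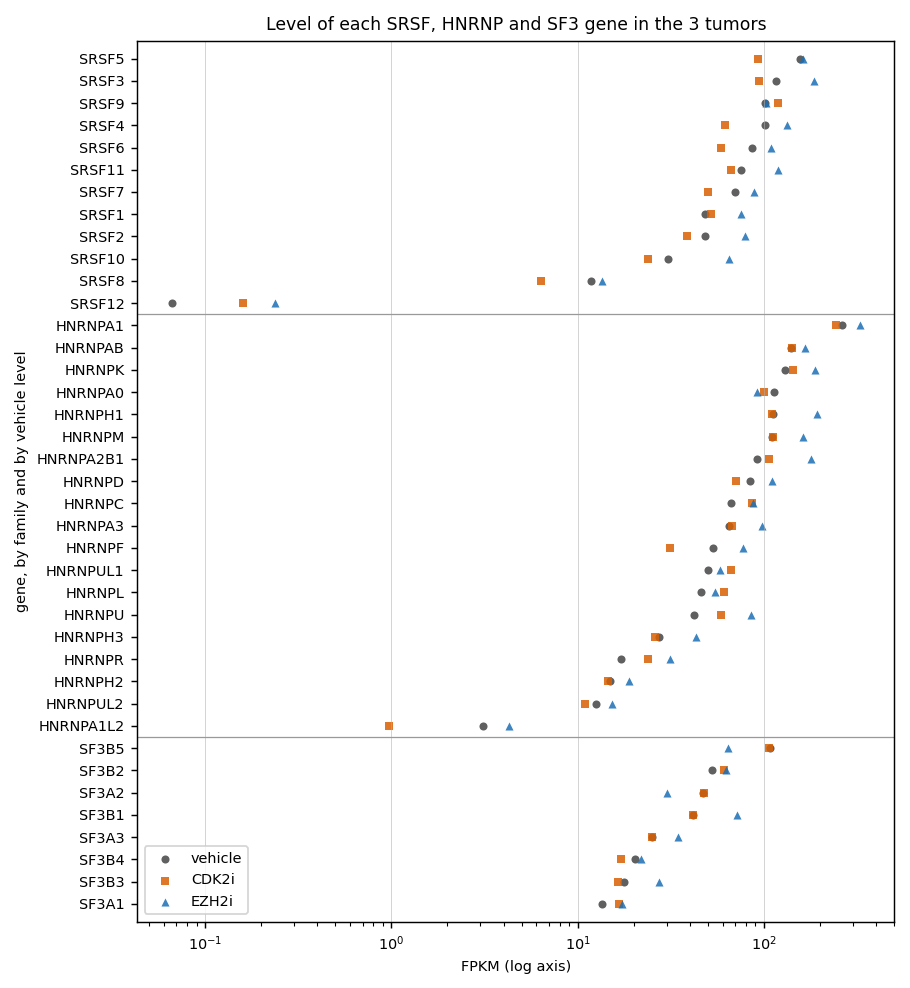
Level of each splicing factor and hnRNP gene in FPKM on a log axis, with 1 point for each of the vehicle, CDK2i and EZH2i tumors and genes grouped as SRSF, HNRNP and SF3. HNRNPA1 lies highest in each tumor, and SRSF12 and HNRNPA1L2 are the genes below 8 FPKM in every tumor.

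In the CDK2i tumor the SR protein genes lay mostly below vehicle and the hnRNP and SF3 genes lay on both sides of it. The 11 expressed SRSF genes had a median of −0.34 on the log2 scale, with 9 of 11 below 0 and a range from −0.90 to 0.23. Of these SRSF genes 18.2% were above 0, against 41.9% of all expressed genes. Relative to the median gene the SRSF median was −0.23, and under the scalings tried it stayed between −0.48 and −0.19. The 19 HNRNP genes had a median of 0.00 and the 8 SF3 genes 0.00, and with the scaling or trend removal these ranged from −0.14 to 0.20 and from −0.14 to 0.16, so no direction is given for them. Of the 37 genes above the expression minimum, 0 were called higher, against 3.27% of all 6632 genes tested, and 0 were called lower, against 8.07%. At a lower threshold of 1.5-fold, 0 were higher against 10.5% of all genes, and 4 (HNRNPF, SRSF4, SRSF5 and SRSF8), or 10.8%, were lower against 18.8%. The count of lower members thus lay below the share of all genes.

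In the EZH2i tumor nearly all of these genes lay above vehicle. Of the 38 expressed genes, 35 were above 0 (92.1%, against 61.5% of all expressed genes), with a median log2 change of 0.40 against 0.19 for all genes. All 11 SRSF genes were above 0, with a median of 0.41. HNRNP genes had a median of 0.47, with 18 of 19 above 0, and SF3 genes 0.31, with 6 of 8 above 0. Relative to the median gene, 31 of the 38 genes lay above 0, with 8 of 11 SRSF, 18 of 19 HNRNP and 5 of 8 SF3 genes. SRSF10 and HNRNPU rose more than 2-fold, which is 5.41% of the 37 genes tested, against 8.93% of all 7414 genes. Relative to the median gene their changes were 0.91 and 0.84, under 2-fold. None of the 37 was called lower, against 4.42% of all genes. At 1.5-fold, 13 of the 37 (35.1%) were higher against 24.5%, and 2 (SF3A2 and SF3B5; 5.41%) were lower against 12.1%. The changes ran with base composition and length. A trend on transcript GC content and length was fitted over annotated expressed genes other than ribosomal protein genes. Once it was removed, the median was 0.02 for all 38 genes and 0.00 for SRSF genes, and no gene was called higher.

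Compared directly, the EZH2i tumor exceeded the CDK2i tumor by a larger median in the SR protein genes than in the hnRNP or SF3 genes. The SRSF median was 0.90, with 10 of 11 genes above 0 (90.9%, against 66.9% of all expressed genes). The HNRNP median was 0.48, the SF3 median 0.22 and the median of all genes 0.35. The SRSF median was not particular to these genes. Among the other lists of splicing genes described below it was 0.86 for SR protein kinases, 0.83 for SR-related and TRA2 genes and 0.93 for minor spliceosome genes. In the remaining lists it ran from 0.18 to 0.62. HNRNPF, SRSF2, SRSF4, SRSF8 and SRSF10 were higher by more than 2-fold in EZH2i, or 13.5% of 37 genes against 17.5% of all 7394. With each library centered only SRSF10 of these was still called, and with the trend on GC content and length removed none was. None was called lower, against 6.53% of all genes. At 1.5-fold, 16 genes (43.2%) were higher against 33.4% and 2 (SF3A2 and SF3B5; 5.41%) were lower against 14.3%, and 9 of the 16 were SRSF genes, which is 81.8% of the 11 tested. With the trend on GC content and length removed the SRSF median was 0.17 and the HNRNP median turned from 0.48 to −0.23, and after centering on the median gene the SF3 median turned from 0.22 to −0.13.

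**Figure D2:**
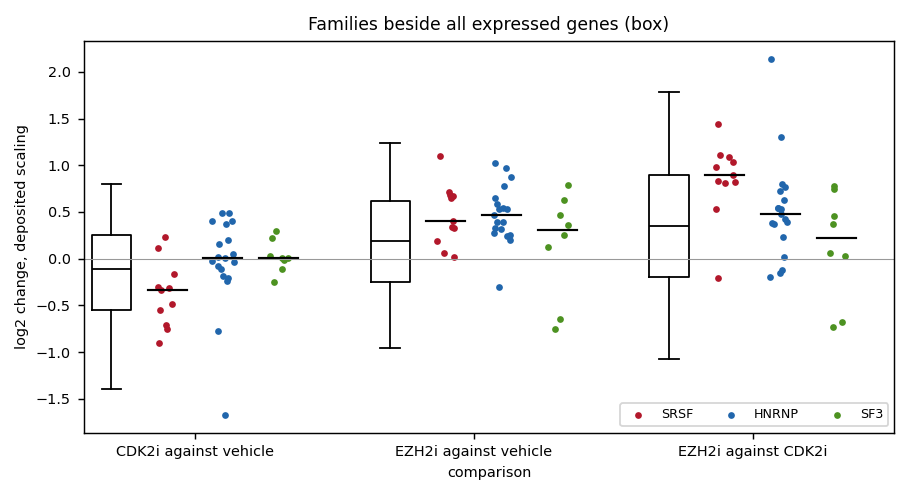
Log2 change (vertical axis) of SRSF, HNRNP and SF3 genes (points) and of all 11109 expressed genes (box with quartiles, whiskers at the 5th and 95th percentile) for CDK2i against vehicle, EZH2i against vehicle and EZH2i against CDK2i, with medians as black lines. The SRSF points lie mostly below the median of all genes in CDK2i, with a median of −0.34, and mostly above it in EZH2i, with a median of 0.41.

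**Figure D3:**
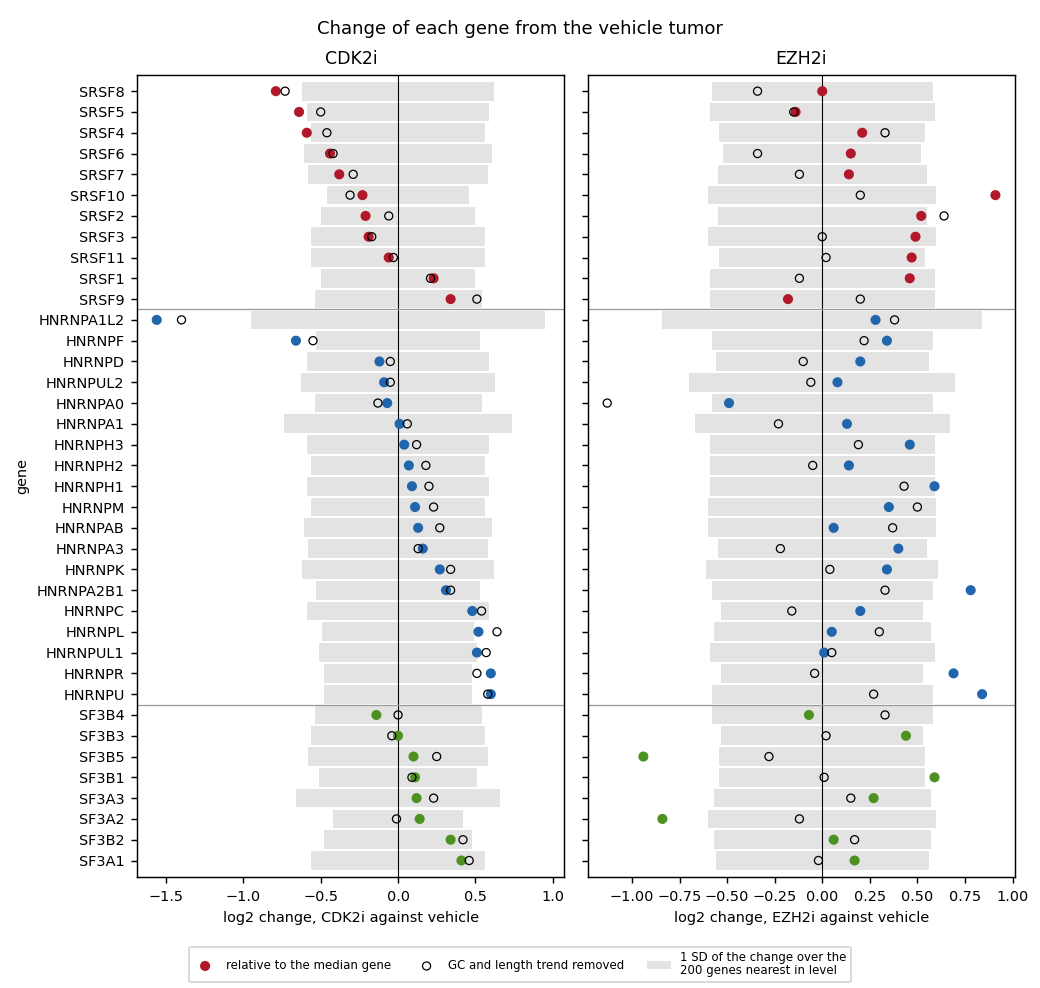
Log2 change of each expressed gene from vehicle in the CDK2i tumor (left) and EZH2i tumor (right), relative to the median gene (filled points) and with the GC and length trend removed (open circles); gray bars show 1 SD of the change over the 200 genes nearest in level. In CDK2i the filled points of SRSF4, SRSF5, SRSF8, HNRNPF and HNRNPA1L2 lie left of the bars. Those of HNRNPL, HNRNPR, HNRNPU and HNRNPUL1 lie right of them. Of the 38 genes, 9 lie beyond the bars in CDK2i and 7 in EZH2i, and this share was not counted over all genes. In EZH2i those of SRSF10, HNRNPU, HNRNPA2B1, HNRNPR and SF3B1 lie right and those of SF3A2 and SF3B5 left, while the open circles of these 7 genes lie within the bars. The open circle of SRSF2 (0.64) lies right of its bar and that of HNRNPA0 (−1.13) left of it.

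The SR protein genes encode arginine-serine tails of different length and density, and the densest stretch of 7 of them, which span the range from most to fewest such codons, is given from the GRCh37 genome with the GENCODE 44 annotation. Each line is the window of 90 coding bases within 1 exon that holds the most pairs of neighboring arginine and serine codons, in either order and with overlapping pairs counted. Codons in such pairs are in capitals, and the strand is that of the gene.
SRSF4, chr1:29474925-29475014, minus strand: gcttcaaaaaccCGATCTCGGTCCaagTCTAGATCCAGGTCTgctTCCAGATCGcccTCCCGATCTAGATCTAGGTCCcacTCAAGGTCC
SRSF5, chr14:70237942-70238031, plus strand: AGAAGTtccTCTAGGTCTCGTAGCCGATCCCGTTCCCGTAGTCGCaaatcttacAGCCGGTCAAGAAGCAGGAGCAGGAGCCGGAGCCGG
SRSF6, chr20:42089599-42089688, plus strand: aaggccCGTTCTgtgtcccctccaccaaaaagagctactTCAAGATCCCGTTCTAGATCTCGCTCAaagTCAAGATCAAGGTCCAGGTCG
SRSF2, chr17:74732441-74732530, minus strand: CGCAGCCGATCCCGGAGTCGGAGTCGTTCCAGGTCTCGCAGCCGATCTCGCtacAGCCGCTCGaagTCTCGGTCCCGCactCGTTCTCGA
SRSF1, chr17:56082818-56082907, minus strand: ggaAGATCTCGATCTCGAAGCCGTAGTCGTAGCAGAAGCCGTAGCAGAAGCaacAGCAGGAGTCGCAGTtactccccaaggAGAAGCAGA
SRSF10, chr1:24297662-24297751, minus strand: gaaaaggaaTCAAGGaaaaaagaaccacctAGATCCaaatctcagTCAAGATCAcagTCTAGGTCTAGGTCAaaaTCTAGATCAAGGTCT
SRSF9, chr12:120899861-120899950, minus strand: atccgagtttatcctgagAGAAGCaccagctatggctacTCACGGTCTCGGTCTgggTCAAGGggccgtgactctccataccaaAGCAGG
These windows held 23 pairs in SRSF2 and SRSF5, 21 in SRSF1, 17 in SRSF4, 15 in SRSF6, 12 in SRSF10 and 7 in SRSF9. The densest windows of the genes not shown held 12 pairs in SRSF11, 11 in SRSF7, 7 in SRSF12 and 3 in SRSF3. Windows had to lie within 1 exon, and SRSF3 has 25 pairs in 164 codons (15.2 per 100), so its window does not show how dense its tail is. A dense window did not mean a long tail, since SRSF1 had more pairs than SRSF4 in its window and fewer in all. Over the whole coding sequence SRSF4 had 113 pairs, SRSF6 76, SRSF7 53, SRSF2 and SRSF5 52 each, SRSF10 42, SRSF11 40, SRSF1 31, SRSF12 26, SRSF3 25 and SRSF9 9. No HNRNP or SF3 gene had more than 12. SRSF8 was left out of these counts because its coding sequence as annotated did not read through on GRCh37.

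SRSF4, SRSF5 and SRSF6 encode one subfamily of closely related SR proteins. SRSF4 stood at 101, 61.6 and 133 FPKM (vehicle, CDK2i, EZH2i), a log2 change of −0.71 in CDK2i (spread 0.56) and 0.41 in EZH2i. SRSF5 stood at 157, 93.4 and 163 FPKM, a log2 change of −0.75 in CDK2i (spread 0.59) and 0.06 in EZH2i. SRSF6 stood at 86.0, 58.5 and 109 FPKM, a log2 change of −0.55 in CDK2i (spread 0.61) and 0.34 in EZH2i. As deposited, all of them were lowest in the CDK2i tumor and highest in the EZH2i tumor. Relative to the median gene the CDK2i change exceeded 1 spread in SRSF4 and SRSF5 (−0.59 and −0.64) but not in SRSF6 (−0.44). The EZH2i changes relative to the median gene were 0.21, −0.14 and 0.15 (SRSF4, SRSF5, SRSF6). With the GC and length trend removed they were 0.33, −0.15 and −0.34. Only in SRSF4 did the EZH2i change stay above 0 in each case, and it lay within its spread of 0.54.

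SRSF2, a component of nuclear speckles, stood at 48.1, 38.6 and 78.8 FPKM in vehicle, CDK2i and EZH2i, with log2 changes of −0.32 and 0.71 from vehicle and 1.03 between the treated tumors. Its EZH2i change was 0.52 relative to the median gene and 0.64 with the GC and length trend removed (spread 0.55). SRSF8, a relative of SRSF2, stood at 11.8, 6.33 and 13.5 FPKM, with the lowest change of any expressed SR protein gene in CDK2i, −0.90 (spread 0.62), and 0.19 in EZH2i. Reads from SRSF2 and SRSF8 may have been split between them where the sequences match. SRSF7, whose protein carries a zinc knuckle, stood at 70.1, 50.0 and 88.2 FPKM, and its change in CDK2i, −0.49, was within the spread of 0.58.

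SRSF1, an SR protein with oncogenic activity in breast cells, differed from these. It stood at 48.2, 52.2 and 75.5 FPKM (vehicle, CDK2i, EZH2i), with log2 changes of 0.12 and 0.65. Its closest relative SRSF9, whose coding sequence matched that of SRSF1 at 77.2% of 646 aligned bases, stood at 101, 119 and 102 FPKM and was the only expressed SRSF gene lower in EZH2i than in CDK2i, by a log2 change of −0.21 (spread 0.66). SRSF1 and SRSF9 were the 2 expressed SRSF genes that were higher in CDK2i than in vehicle, and neither change exceeded its spread.

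SRSF3, the smallest SR protein, stood at 116, 94.0 and 186 FPKM (vehicle, CDK2i, EZH2i), with log2 changes of −0.30 and 0.68. SRSF11, which interacts with U2AF, stood at 75.2, 66.9 and 119 FPKM, with log2 changes of −0.17 and 0.67. SRSF10, which represses splicing when it is dephosphorylated, stood at 30.4, 24.0 and 65.3 FPKM, a log2 change of −0.34 in CDK2i (spread 0.46) and 1.11 in EZH2i (spread 0.60). SRSF10 thus had the largest rise from vehicle of the 38 expressed genes in EZH2i, and 1.44 from CDK2i. Its transcript is among those of low GC content (35.89%), and with the GC and length trend removed its EZH2i change was 0.20. SRSF12, a relative of SRSF10, was near the limit of detection, at about 4, 11 and 15 fragments, and no direction is given for it.

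Across the 10 expressed SRSF genes with a counted coding sequence, the CDK2i change was lower where there were more arginine-serine codon pairs. SRSF8, which had the lowest CDK2i change of the expressed SRSF genes (−0.90), has no such count and is absent from these values. Spearman's rho was −0.85, and −0.79 over 8 genes without SRSF4 and SRSF9, which hold the most and the fewest pairs. With the GC and length trend removed it was −0.76. With pairs per 100 codons in place of their number it was −0.72. The same measure against coding length in codons gave −0.50, against transcript GC content −0.18 and against transcript length 0.09. For the EZH2i change codon pairs gave −0.10, transcript GC content −0.60 and transcript length 0.59. For the change from CDK2i to EZH2i codon pairs gave 0.44. These values are across genes of 1 family measured in the same libraries, which are not independent, and describe these tumors alone.

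**Figure D4:**
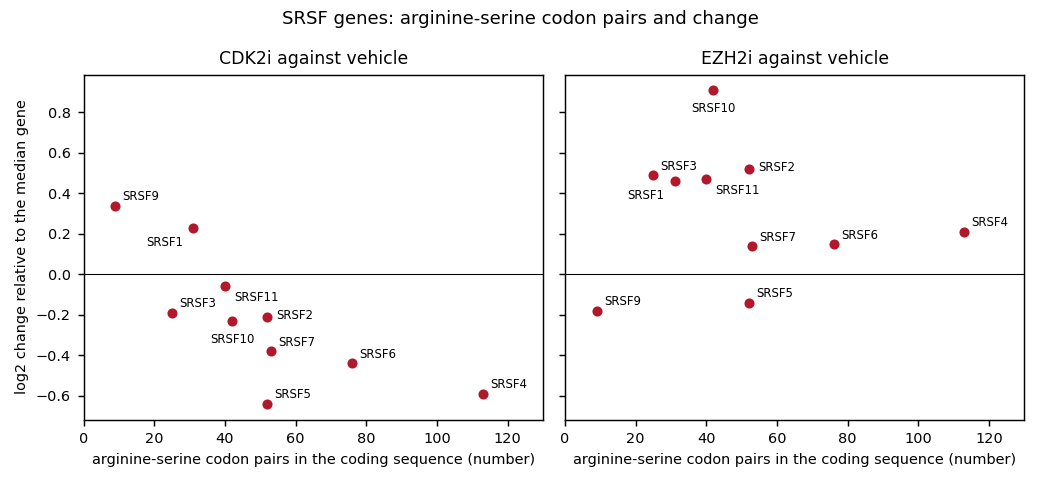
Log2 change relative to the median gene (vertical axis) against the number of arginine-serine codon pairs in the coding sequence (horizontal axis) for 10 SRSF genes in the CDK2i tumor (left) and the EZH2i tumor (right). Of these 10 genes SRSF9 with 9 pairs lies highest and SRSF4 and SRSF5 lie lowest in CDK2i, while no such order is seen in EZH2i. SRSF8, with a lower CDK2i change of −0.79, has no counted coding sequence and is not shown.

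Among the hnRNP genes, HNRNPU and HNRNPR had the highest changes in CDK2i. HNRNPU, which binds RNA and chromatin as a nuclear scaffold protein, lies at chr1:245003940-245027862 and stood at 41.9, 58.8 and 85.4 FPKM (vehicle, CDK2i, EZH2i), a log2 change of 0.49 in CDK2i (spread 0.48) and 1.03 in EZH2i (spread 0.58). HNRNPR, related to SYNCRIP, stood at 17.0, 23.9 and 31.2 FPKM, a log2 change of 0.49 (spread 0.48) and 0.88 (spread 0.53). Both were in the order vehicle, CDK2i, EZH2i. With the GC and length trend removed their EZH2i changes were 0.27 and −0.04, and their CDK2i changes 0.58 and 0.51. The HNRNPU relative HNRNPUL1 stood at 50.4, 66.4 and 57.8 FPKM, highest in CDK2i, while HNRNPUL2 stood at 12.6, 11.0 and 15.3 FPKM. The CDK2i change of HNRNPUL1 was 0.40, and 0.51 relative to the median gene, at the edge of its spread of 0.51. HNRNPU-AS1, the antisense neighbor of HNRNPU, stood at 0.643, 0.271 and 2.70 FPKM, and since no source used here says that strand was used in counting, reads of the pair cannot be told apart.

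HNRNPA1 and HNRNPA2B1 bind UAG-rich silencers. HNRNPA2B1, which also sorts RNA for transport, stood at 91.8, 106 and 180 FPKM (vehicle, CDK2i, EZH2i), log2 changes of 0.20 and 0.97 (spreads 0.53 and 0.58). HNRNPA3 stood at 65.1, 67.4 and 98.0 FPKM and HNRNPA1 had log2 changes of −0.11 and 0.32, within its spreads of 0.74 and 0.67. HNRNPAB stood at 139, 141 and 166 FPKM, and HNRNPD, which binds AU-rich elements and speeds decay, at 83.8, 71.2 and 110 FPKM. HNRNPA0 stood at 113, 100 and 92.2 FPKM and was the only HNRNP gene below vehicle in EZH2i. Its EZH2i change was −0.30, within its spread of 0.58. With the GC and length trend removed it was −1.13, past 2-fold. That value rests on the trend fitted for a transcript of 8713 bases and 41.02% GC.

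HNRNPA1L2 is a copy of HNRNPA1, and its counts are uncertain for that reason. Their coding sequences were identical at 98.4% of 960 aligned bases. HNRNPA1L2 stood at 3.10, 0.972 and 4.30 FPKM (vehicle, CDK2i, EZH2i), from about 70, 25 and 101 fragments. Its change in CDK2i of −1.67 exceeded its spread of 0.95 but lay under the expression minimum. Some HNRNPA1 pseudogenes were also lowest in CDK2i, with HNRNPA1P33 at 38.1, 21.1 and 53.1 FPKM, HNRNPA1P16 at 5.30, 0.985 and 2.99 FPKM and HNRNPA1P10 at 2.79, 1.63 and 3.44 FPKM. The parent gene HNRNPA1 differed far less, and how reads were shared between these copies was not tested.

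HNRNPF and the HNRNPH genes bind runs of guanine. HNRNPF stood at 53.4, 31.3 and 77.2 FPKM (vehicle, CDK2i, EZH2i), a log2 change of −0.77 in CDK2i (spread 0.53), 0.53 in EZH2i and 1.30 between the treated tumors. Like SRSF4 and SRSF5, it was lowest in CDK2i. HNRNPH1 stood at 112, 111 and 192 FPKM, a log2 change of −0.02 and 0.78, and HNRNPH3 at 27.5, 26.1 and 43.1 FPKM, −0.07 and 0.65. HNRNPH2, whose coding sequence matched HNRNPH1 at 87.8% of 1346 bases, stood at 14.9, 14.6 and 18.8 FPKM, and its change in CDK2i was −0.04. Thus HNRNPF lay well below vehicle in CDK2i and the HNRNPH genes lay close to it.

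The remaining hnRNPs bind other motifs. HNRNPK, which binds cytosine-rich RNA and DNA, stood at 130, 144 and 187 FPKM (vehicle, CDK2i, EZH2i). HNRNPL, which binds CA repeats, stood at 46.0, 60.8 and 54.5 FPKM. Its log2 change in CDK2i was 0.40, and 0.52 relative to the median gene, with a spread of 0.49. HNRNPC, which binds uridine tracts, stood at 66.7, 86.3 and 87.7 FPKM, a CDK2i change of 0.37, and 0.48 relative to the median gene (spread 0.59). HNRNPM stood at 111, 112 and 162 FPKM. Of these genes HNRNPL was the one that was highest in the CDK2i tumor.

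The SF3 genes split in the EZH2i tumor by gene and not by complex. SF3B1, the subunit that contacts the branch point and is often mutated in myelodysplasia, stood at 41.4, 41.5 and 71.4 FPKM (vehicle, CDK2i, EZH2i), a log2 change of 0.00 and 0.79 (spread 0.54). SF3B3 stood at 17.7, 16.4 and 27.4 FPKM, −0.11 and 0.63. SF3B5, a small subunit of the same complex, stood at 108, 106 and 63.9 FPKM, −0.02 and −0.75 (spread 0.54). SF3A2 of the SF3A complex was likewise lowest in EZH2i, at 47.0, 47.8 and 30.0 FPKM, with changes of 0.02 and −0.65 (spread 0.60). Its transcript has 66.52% GC, that of SF3B5 56.52% and 690 bases, and with the trend removed their EZH2i changes were −0.12 and −0.28, and that of SF3B1 was 0.01. The other SF3 genes differed from vehicle by less than their spread in either treated tumor. SF3A1 stood at 13.5, 16.7 and 17.4 FPKM, SF3A3 at 25.0, 25.1 and 34.5, SF3B2 at 52.5, 61.3 and 62.5 and SF3B4 at 20.3, 17.0 and 22.0. Every SF3 change in CDK2i lay between −0.25 and 0.30 and within its spread.

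Base composition and length moved with the EZH2i values. Ribosomal protein genes were left out of the wider set used here, which held 10217 annotated expressed genes. Across these, Spearman's rho of the EZH2i change was −0.581 with transcript GC content and 0.489 with length. Over the 38 genes it was −0.640 and 0.444. For the CDK2i change it was 0.0334 and 0.0948 over the 10217 genes and 0.0682 and 0.155 over the 38. The median GC content was 40.0% for SRSF, 42.4% for HNRNP and 52.8% for SF3 transcripts, against 49.8% for the 10217 genes. The SRSF transcripts had a median length of 3959 bases against 3086 for the 10217 genes, HNRNP 3068 and SF3 3023. Why the EZH2i change ran with these properties was not tested, and the GC content, the drug and the library cannot be told apart with 1 tumor.

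**Figure D5:**
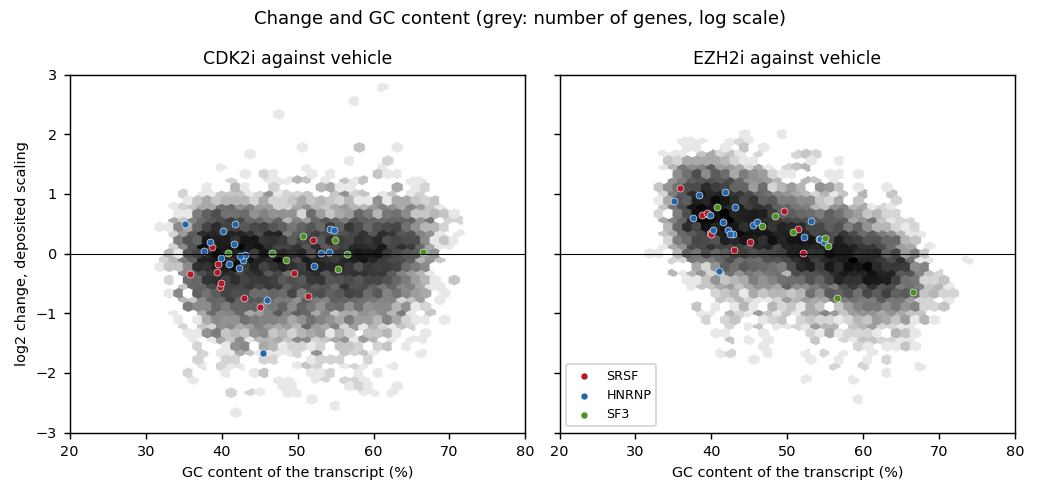
Log2 change from the vehicle tumor (vertical axis) against transcript GC content in percent (horizontal axis) in the CDK2i tumor (left) and EZH2i tumor (right), with SRSF, HNRNP and SF3 genes colored over all annotated expressed genes. In EZH2i both the 38 genes and all genes slope down, with Spearman's rho of −0.640 and −0.581, and in CDK2i they do not. The rho of −0.581 leaves out ribosomal protein genes.

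The annotation also separates the families by transcript type, as background to the table, which is per gene and holds no isoform levels. In GENCODE 44 all 12 SRSF genes had at least 1 transcript annotated for nonsense-mediated decay (100%), against 12 of 19 HNRNP genes (63.2%), 3 of 8 SF3 genes (37.5%) and 49.0% of 9927 expressed protein-coding genes. A retained intron was annotated in 83.3% of SRSF, 73.7% of HNRNP and 62.5% of SF3 genes, against 63.4%. Productive and poison-exon transcripts of a gene are summed in the FPKM, so the levels above cannot be assigned to either.

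Other genes of the splicing pathway were taken as lists. Over the 9 expressed SR protein kinases the median was −0.28 for CDK2i and 0.67 for EZH2i on the log2 scale. CLK1, which phosphorylates SR proteins in the nucleus, stood at 28.7, 22.2 and 46.3 FPKM (vehicle, CDK2i, EZH2i). CLK4 stood at 5.66, 1.70 and 10.4 FPKM, and SRPK1, which phosphorylates SR proteins in the cytoplasm, at 14.6, 16.0 and 29.2 FPKM. SRPK1 rose past 2-fold in EZH2i, as 1 of the 8 kinases tested, against 8.93% of all genes. CLK1, CLK4 and PRPF4B, 3 of 8, were higher in EZH2i than in CDK2i by more than 2-fold, against 17.5% of all genes, but relative to the median gene CLK1 (0.71) and PRPF4B (0.89) were under 2-fold. None of the kinases was called in CDK2i. The 20 SR-related and TRA2 genes had medians of −0.30 and 0.59, with 1 of 17 called lower in CDK2i against 8.07% of all genes and 1 of 19 called higher in EZH2i against 8.93%. LUC7L, a U1-associated factor, fell from 59.9 FPKM in vehicle to 13.2 in CDK2i and stood at 48.3 in EZH2i, a log2 change of −2.19 in CDK2i, and SCAF11 rose from 5.46 in vehicle to 14.7 in EZH2i.

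The lists for the core of the spliceosome had medians below that of all genes in CDK2i. Medians in CDK2i and EZH2i were −0.39 and −0.11 for 26 Sm, LSm and snRNP proteins, −0.22 and 0.38 for 12 U2 auxiliary factors, −0.36 and 0.33 for 21 genes of U5, U4/U6 and the PRPF19 complex, and −0.50 and 0.23 for 7 minor spliceosome genes. In that order, 1 of 24, 1 of 12, 2 of 17 and 1 of 4 tested genes were called lower in CDK2i, and 1 of 25, 1 of 12, 0 of 20 and 1 of 7 were called higher in EZH2i, with SNRNP35 and SNRNP48 in both the first and the last list. Of all genes 8.07% were called lower in CDK2i and 8.93% higher in EZH2i. SNRNP35 (8.16 to 3.36 FPKM), DDX42 (33.6 to 16.7), PRPF3 (24.6 to 12.2) and PRPF38B (44.8 to 19.5) fell past 2-fold in CDK2i, and SNRNP48 (4.07 to 8.60) and U2SURP (11.8 to 24.2) rose past 2-fold in EZH2i. Medians were −0.16 and 0.37 for 16 hnRNPs under other symbols, −0.04 and 0.52 for 16 tissue-specific regulators and −0.23 and 0.24 for 16 genes of nonsense-mediated decay and the exon junction complex. In each of these lists 1 gene was called lower in CDK2i, of 14, 11 and 12 tested, and 1 higher in EZH2i, of 16, 11 and 14 tested, which is close to those shares of all genes. After removal of the trend on GC content and length the EZH2i medians of all these lists were 0.30 for the kinases, 0.06 for SR-related and TRA2 genes, −0.08 for Sm, LSm and snRNP proteins, 0.15 for U2 auxiliary factors, −0.03 for U5, U4/U6 and PRPF19 complex genes, 0.21 for minor spliceosome genes, 0.13 for hnRNPs under other symbols, 0.03 for tissue-specific regulators and 0.03 for nonsense-mediated decay genes. CIRBP, a cold-induced RNA-binding protein, fell from 124 to 58.0 FPKM in CDK2i and PTBP3 rose from 9.09 to 25.0 in EZH2i. RBM5 fell from 12.3 to 5.36 FPKM and SMG9 from 13.2 to 5.23 in CDK2i, and MBNL1 rose from 7.16 to 17.7 and SMG1, the kinase of UPF1, from 5.19 to 16.6 in EZH2i. Relative to the median gene, the changes of SRPK1, SNRNP48, U2SURP, DDX42, PRPF3 and CIRBP in the tumors just given were under 2-fold.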

How the data were processed

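RNA was sequenced from 3 xenograft tumors, 1 library per group. The authors deposited log2 FPKM per gene symbol for 29689 genes, with −9 as the lowest value. The submitters' processing notes name CASAVA, STAR and hg19 without versions. The counting tool and the use of strand are not given in the sources used here. The p-value cutoff of the authors' limma test was not applied, since 1 library per group leaves no error to estimate. Depth was recovered from the 1-fragment steps of weak genes with GENCODE 44 exon lengths on GRCh37. It sets counting error only, at most 0.34 (SE of a log2 change) in the 38 expressed genes.

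Changes are differences of deposited log2 values, with no pseudocount. A gene was called past 2-fold when its higher value exceeded log2 FPKM 3. The trend on GC content and length was a polynomial of degree 3 fitted to 10217 expressed genes with an annotated transcript, without ribosomal protein genes. Of 11109 expressed genes, 92.7% matched the annotation by symbol. The calls and the removal of the trend were tested on simulated data. Alternatives were other pseudocounts, minima, folds and scalings, the trend, and leaving out genes with listed copies.

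All genes found by the symbol rule were accounted for. Named were genes called in any comparison, the 3 highest and 3 lowest of each family in each treated tumor and the most abundant. From other lists, up to 2 genes with the largest change in each direction were named, and other genes of these lists that were called, chosen after their values were seen, as were the HNRNPA1 pseudogenes. The members and lists were chosen with earlier results of these data known. Python 3.11.15, numpy 2.4.6, pandas 2.3.3, scipy 1.17.1 and matplotlib 3.10.9 were used. Sequence of the HNRNPA1 pair is not reported here.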

Additional observations from a re-analysis of the deposited data

How the results depend on the processing

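No paired analysis was possible because each group has 1 library, and for the same reason no library could be left out. The fold threshold, the expression minimum and the scaling moved the counts of called genes. For genes lower in CDK2i (0 as reported) the count was 4 at 1.5-fold, 1 with no expression minimum, 1 with a minimum of log2 FPKM 1 (HNRNPA1L2) and 1 (SRSF8) when sums without ribosomal protein or mitochondrial genes were equalized. For genes higher in CDK2i (0) it was 1 with no minimum, SRSF12. For genes higher in EZH2i (2) it was 13 at 1.5-fold, 0 at 3-fold, 0 with each library centered, 6 with the summed FPKM made equal and 0 after removing the trend on GC and length, and for genes lower in EZH2i (0) it was 2 at 1.5-fold and 1 with the trend removed, HNRNPA0. Between the treated tumors the count of genes higher in EZH2i (5) was 16 at 1.5-fold, 0 at 3-fold, 1 with each library centered (SRSF10), 8 when those sums were equalized and 0 without the trend. The count of genes lower in EZH2i (0) was 2 at 1.5-fold and 2 with each library centered. The median from CDK2i to EZH2i was 0.17 for SRSF and −0.23 for HNRNP genes with the trend removed. With the trend removed the EZH2i medians fell toward 0, from 0.40 to 0.02 over all 38 genes, from 0.41 to 0.00 for SRSF, from 0.47 to 0.05 for HNRNP and from 0.31 to 0.02 for SF3 genes, which is less than the spread of a single gene but most of the median. The cause of these shifts was not tested.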
